A study of Mus musculus with 6 samples.

Results

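RUNX1 chromatin immunoprecipitation sequencing (ChIP-seq) in mouse granulosa cells gave 4927 regions that were bound inside genes 6 h after hCG and had no peak before hCG. Each region joined overlapping peaks (at least 1 bp) of both libraries made at 6 h, was under 2000 bp wide and overlapped no peak of either library made at 0 h. Its summit, the position of highest read pileup in the peak with the highest −log10 p, lay inside a RefSeq gene of GRCm38 and more than 1 kb from every gene end. The 4927 regions were 34.5% of the 14277 narrow regions found at 6 h only (95% CI 33.7 to 35.3, Clopper-Pearson, counting error only), and all replicated regions at 6 h numbered 17190. Without 6 h replicate 1, so that the longer 6 h list stood alone, the same rule gave 10425 regions. The regions were thus chosen by the presence of peaks in both 6 h lists, the absence of a 0 h peak, their width and their place inside a gene, so these are a description and were not tested. Among all replicated 6 h regions, 83.5% overlapped no 0 h peak. That share depends on the length of the lists, which held 948 and 3135 peaks at 0 h and 18761 and 28671 at 6 h, and it is not a measure of a change in binding.

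The series holds 4 RUNX1 ChIP libraries, 2 before hCG (0 h) and 2 collected 6 h after it, with 1 pooled input at each time point. The mice were CBA x C57BL/6 F1 aged 21 days, primed for follicle growth with eCG (equine chorionic gonadotropin, 5 IU), and given hCG (human chorionic gonadotropin, 5 IU) 46 h later in place of the luteinising hormone surge. The treatment text is shared by all samples and covers only the 6 h collection, so the 0 h group rests on the sample titles and the time-point label. No text says whether the libraries of a time point came from separate animals or how many mice were pooled. The labels name no allele or transgene, and peak lists give no expression from which the purity of the granulosa cells could be checked.

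RUNX1 is a transcription factor that binds DNA through its Runt domain as a pair with the partner protein CBFB, at sites with the core letters TGTGGT or close variants. Granulosa cells are the somatic cells of the ovarian follicle. They make oestrogen before the luteinising hormone surge and switch to the programme of ovulation and luteinisation after it, and Runx1 is a gene that the surge is known to induce in them. Regions bound inside a gene, away from its ends, can be enhancers of that gene or of a neighbour, or starts of shorter transcripts, and a peak list does not tell these apart.

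Sequence can be shown only for the regions that covered an annotated transcription start inside a longer gene, since the reference used here holds sequence next to starts and no whole genome. A window of 250 bases before to 50 bases after each start was read, and 292 such windows had the summit of one of these regions in them. The 250 bases before the start are printed for 7 of them and for Cyp19a1, 5′ to 3′ on the strand of the transcript (RefSeq, GRCm38.p6), with each match to TGNGGT on either strand in capitals. Spdya had the strongest region of all windows, Ncoa4 the strongest with a TGTGGT in these bases and Wnt2 the strongest with no match to TGNGGT. Prkar1a, Srebf1, Ltbp1 and Cyp11a1 were the genes of the lists described further on whose bases held a match, and Cyp19a1 is shown because a region covered its start with a summit 142 bp downstream.
Spdya: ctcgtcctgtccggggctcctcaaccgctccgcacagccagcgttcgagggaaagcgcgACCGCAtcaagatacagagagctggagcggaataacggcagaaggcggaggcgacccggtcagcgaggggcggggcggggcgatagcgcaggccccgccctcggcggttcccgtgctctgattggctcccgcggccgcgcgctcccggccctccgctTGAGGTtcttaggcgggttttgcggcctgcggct
Ncoa4: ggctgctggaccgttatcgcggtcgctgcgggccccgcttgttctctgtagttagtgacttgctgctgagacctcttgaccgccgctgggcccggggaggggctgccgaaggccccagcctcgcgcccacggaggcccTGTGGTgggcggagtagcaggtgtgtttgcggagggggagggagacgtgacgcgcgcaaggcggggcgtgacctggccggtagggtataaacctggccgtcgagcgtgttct
Wnt2: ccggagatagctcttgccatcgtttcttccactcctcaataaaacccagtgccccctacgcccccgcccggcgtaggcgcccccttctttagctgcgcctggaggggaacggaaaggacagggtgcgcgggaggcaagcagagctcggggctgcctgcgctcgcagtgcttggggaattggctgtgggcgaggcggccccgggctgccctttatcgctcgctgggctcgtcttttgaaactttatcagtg
Prkar1a: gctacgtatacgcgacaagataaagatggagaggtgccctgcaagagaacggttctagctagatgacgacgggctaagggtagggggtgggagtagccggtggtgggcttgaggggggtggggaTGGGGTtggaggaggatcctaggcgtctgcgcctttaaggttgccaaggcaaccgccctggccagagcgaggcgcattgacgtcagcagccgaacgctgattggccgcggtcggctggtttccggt
Srebf1: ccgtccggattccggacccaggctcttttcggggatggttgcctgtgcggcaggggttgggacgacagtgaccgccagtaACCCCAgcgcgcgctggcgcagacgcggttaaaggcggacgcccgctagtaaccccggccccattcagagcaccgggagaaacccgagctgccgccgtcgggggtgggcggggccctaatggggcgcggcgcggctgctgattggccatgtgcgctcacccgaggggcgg
Ltbp1: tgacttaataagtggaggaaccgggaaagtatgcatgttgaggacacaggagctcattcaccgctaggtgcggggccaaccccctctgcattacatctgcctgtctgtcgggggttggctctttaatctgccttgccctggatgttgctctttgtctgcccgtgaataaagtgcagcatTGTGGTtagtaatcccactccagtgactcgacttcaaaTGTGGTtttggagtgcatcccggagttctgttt
Cyp11a1: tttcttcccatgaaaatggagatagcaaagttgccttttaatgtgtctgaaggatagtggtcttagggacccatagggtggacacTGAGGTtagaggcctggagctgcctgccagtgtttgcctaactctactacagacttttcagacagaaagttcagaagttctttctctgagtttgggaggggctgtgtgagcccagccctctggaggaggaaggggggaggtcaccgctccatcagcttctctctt
Cyp19a1: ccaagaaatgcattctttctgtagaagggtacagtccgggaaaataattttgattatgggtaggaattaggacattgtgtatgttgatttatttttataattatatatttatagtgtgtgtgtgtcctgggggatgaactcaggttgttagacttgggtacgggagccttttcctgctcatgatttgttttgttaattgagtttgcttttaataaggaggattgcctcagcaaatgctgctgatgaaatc

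These bases lie at chr17:71551811-71552060 (Spdya, plus strand), chr14:32165539-32165788 (Ncoa4, plus), chr6:18030446-18030695 (Wnt2, minus) and chr11:109650699-109650948 (Prkar1a, plus). The others lie at chr11:60210472-60210721 (Srebf1, minus), chr17:75178531-75178780 (Ltbp1, plus), chr9:58014702-58014951 (Cyp11a1, plus) and chr9:54193744-54193993 (Cyp19a1, minus). The Ltbp1 start, 173301 bp inside the gene of a protein that stores latent TGF-beta in the matrix, had 2 matches to TGTGGT before it, and the region's summit was 3 bp from the centre of the nearer one. Its region at chr17:75178359-75178902 had a pileup of 53 reads in 6 h replicate 1 and 92 in replicate 2. The Ncoa4 start, 5910 bp inside the gene of a receptor coactivator and ferritin cargo receptor, had 1 TGTGGT, 67 bp from the summit, with pileups of 92 and 149 reads. The summit was 176 bp before this start. Another Ncoa4 start under the same region, 5707 bp inside the gene, was nearer, with the summit 27 bp past it. The 250 bases before that nearer start held no TGTGGT. The Spdya start, 25166 bp inside the gene of a cyclin-like activator of CDK2, had pileups of 160 and 206 reads and its nearest TGNGGT was 36 bp from the summit. The Wnt2 start, 2327 bp inside the gene of a secreted WNT ligand, had pileups of 99 and 170 reads with no match in these bases, and its summit lay 5 bp past the start, outside them. In Prkar1a (a regulatory subunit of protein kinase A), Srebf1 (a regulator of lipid synthesis genes) and Cyp11a1 (the side-chain cleavage enzyme that makes pregnenolone from cholesterol) the match lay 172, 42 and 162 bp from the summit.

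Width and the place of the summits describe the shape of the regions, of which a width under 2000 bp and an overlap of both libraries' peaks were set by the definition. The median width was 508 bp (quartiles 378 to 709 bp). The summits of the 2 libraries lay a median of 30 bp apart, and within 50 bp in 69.8% of the regions (95% CI 68.5 to 71.1). The gap was 41 bp in the 7028 narrow 6 h-only regions near gene ends, where 56.9% were within 50 bp, and 27 bp in the 2322 between genes. It was 22 bp in the 741 narrow regions inside genes that overlapped a 0 h peak. No region class was tested against another, because 2 libraries per time point share their input and the classes were cut from the same peaks.

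The height of the regions at 6 h was set against what could be called at 0 h. Pileup, the number of extended reads over the summit, had a median of 42 in replicate 1 and 59 in replicate 2 and ranged from 20 to 240 and from 19 to 272. The middle 80% of regions lay between 29 and 82 reads in replicate 1 and between 33 and 118 in replicate 2. At 0 h, where the genome-wide background was 2.77 and 2.65 reads (2.76 and 2.13 at 6 h), peaks at that background were called from 20 and 19 reads upwards. In 2697 regions (54.7%) both 6 h libraries had at least 40 reads, and in 1108 (22.5%) at least 60. A region absent from the 0 h lists may still have held reads below that limit. The regions had to be called at 6 h, where peaks at the background had at least 20 and 17 reads, so that nearly all lay above the 0 h limits follows from the definition. The plot of pileup at 6 h shows their spread.

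**Figure D1:**
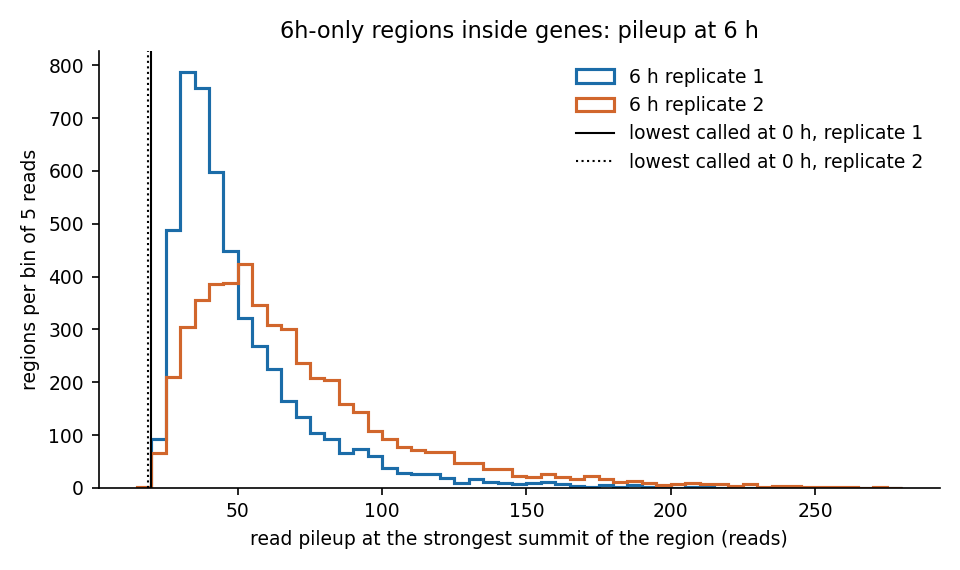
Read pileup at the strongest summit of the 4927 regions (x axis, reads) against the number of regions per bin of 5 reads (y axis), for 6 h replicates 1 and 2. Vertical lines mark the lowest pileup called at 0 h on the genome-wide background, 20 and 19 reads. The medians are 42 and 59 reads, and the lowest values of 20 and 19 lie at the lines because peaks at 6 h had to pass a like limit to be called.

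Fold enrichment, the authors' ratio of ChIP to local background at the summit, was ranked within each 6 h list and is given as a percentile, since the lists differ in length. The regions had a median fold of 8.43 in replicate 1 and 14.1 in replicate 2, at median percentiles of 48.2 and 68.8. Narrow 6 h-only regions between genes stood 3.74 and 6.19 percentile points higher, and regions inside genes with a 0 h peak 32.9 and 19.9 points higher. Regions near gene ends stood 3.0 and 12.8 points lower by fold. On the mean of the percentiles, the range of this difference with 1 library left out, given further on, reaches down to a much smaller value. By recovered pileup the order against gene ends was opposite in replicate 1, where the regions inside genes were 7.42 points lower, and the same in replicate 2, where they were 5.06 points higher. A −log10 q of at least 20 in both libraries was reached by 63.2% of the regions and by 92.6% of those inside genes with a 0 h peak. Of the 720 regions among the 948 highest peaks of both 6 h lists, 83 (11.5%) belonged to this set, which made up 28.7% of all replicated 6 h regions. The set was thus mostly of middle rank, with a small top group.

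The 10 regions with the highest percentiles lay in genes of varied function. The highest was at chr11:104361559-104362661 in Kansl1, a subunit of a histone acetyltransferase complex, with pileups of 175 and 240 reads and folds of 46.8 and 76.9. Nearly level with it was chr13:37398902-37400196 in Ly86, which encodes the immune-cell surface protein MD-1, with 175 and 239 reads. The third, in the long non-coding RNA gene 4732465J04Rik, had 164 and 219 reads, and the fourth, in the deubiquitinase gene Usp43, had 240 and 246 reads. Sez6l, a gene known from neurons, followed with 195 and 243 reads. The others were in Trpc4ap, Vps26a (a retromer subunit that sorts endosomal cargo), Zfp983, the T-cell receptor delta locus Tcrd and the neuronal adhesion gene Cntn5. Their pileups lay between 133 and 157 reads in replicate 1 and between 175 and 198 in replicate 2. Several of these hosts are best known from other tissues, and a host gene here is only the gene in which a summit lies.

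The values on both sides of the limits of the definition were as follows. The widest kept was in Ski, a repressor of SMAD signalling, at 1993 bp with folds of 7.51 and 15.8, next to 1975 bp in Rhbdf2 with 14.8 and 27.1. Just over the width limit were 2034 bp in Mb with folds of 18.6 and 32.4 and 2096 bp in Slc12a8 with 15.6 and 43.5. At the distance limit, Synj1 (7.71 and 6.25) and Eepd1 (7.59 and 15.5) were kept at 1001 bp from a gene end. At 1000 bp, Gm46455 (7.92 and 15.9) and Morf4l2 (10.2 and 16.1) were left out. At both limits the 2 regions left out had higher folds than the 2 kept, in each library.

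Within their genes the regions lay towards the start. Strand was known for 3899 of them, and 29.1% (95% CI 27.7 to 30.5) had the summit in the fifth of the host gene nearest its outermost start. The shares in the following parts fell to 22.2%, 18.4%, 16.1% and 14.3%. Positions in the same genes that the definition allows gave 17.7%, 21.4%, 21.8%, 21.4% and 17.7%. Regions inside genes with a 0 h peak fell in the same order, from 29.4% to 14.6%, and the difference between the classes was not tested. The lean was smaller away from gene ends. Over 5000 bp from every gene end, 16.9% of 2353 regions (95% CI 15.4 to 18.4) lay in the fifth nearest the start and 12.7% in the fifth nearest the end, against 14.7% and 14.6% of the positions allowed under that limit. A summit within 2000 bp of the outermost start was found in 12.3% of regions, against 4.06% of allowed positions.

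Part of this lean lay at transcription starts annotated inside the gene. Of the 3899 regions, 12% had a summit within 250 bp of any annotated start, against 0.893% of the allowed positions of their genes, and 19.4% (95% CI 18.2 to 20.7) within 1000 bp, against 3.32%. Regions inside genes with a 0 h peak gave 22.3% within 1000 bp. Among the 3143 regions farther than that from every start, 22.6% remained in the fifth nearest the outermost start, against 17.5% of allowed positions, and 17.2% in the fifth nearest the end, against 18.1%. The 761 regions within 1000 bp of an annotated start were wider than the 4019 others on the same chromosomes, with medians of 623 and 488 bp. Their fold percentiles were lower, 45.2 and 54.6 against 49.0 and 71.2 in replicates 1 and 2, and their summits differed by 39 bp against 29 bp between libraries.

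**Figure D2:**
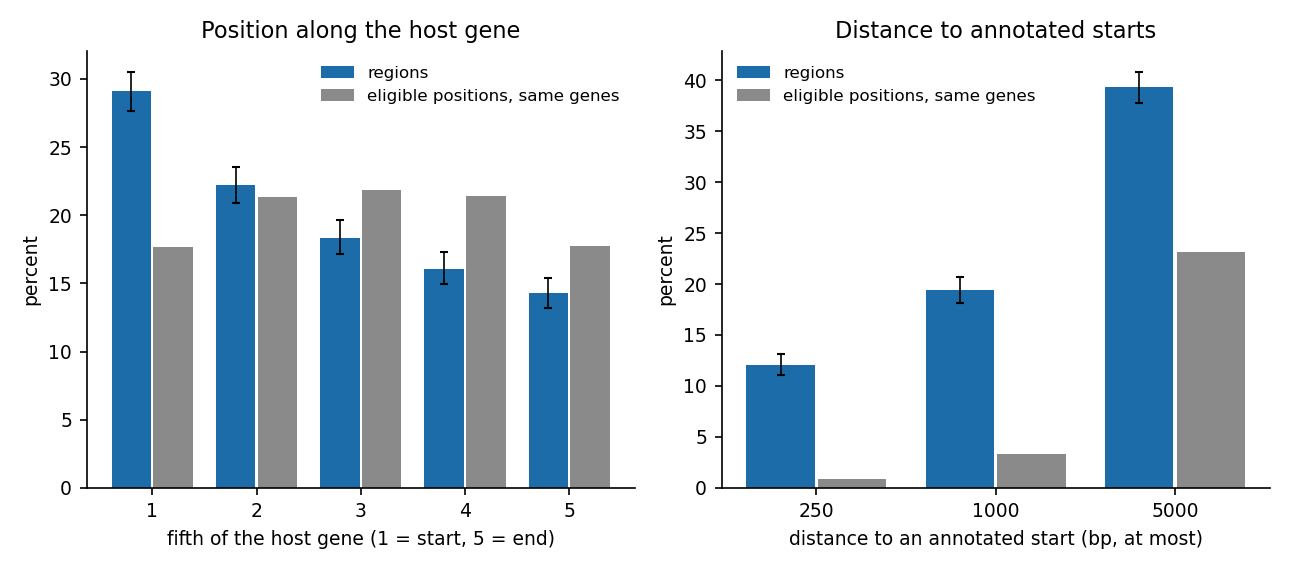
Left, share of the 3899 regions with a known strand (y axis, percent) along the host gene cut into 5 equal parts from its start (x axis). Right, share within a distance of any annotated start (x axis, bp). Blue bars are the regions with 95% Clopper-Pearson intervals and grey bars the allowed positions of the same genes, and the ratio of blue to grey is highest within 250 bp of a start, 12% against 0.893%.

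Seen from the starts, 4728 of the 32851 annotated starts lay inside a gene and over 1 kb from gene ends. A region of the set covered 563 of them (11.9%), any replicated 6 h region 16.5% and a 0 h peak 2.2%. Of the other 28123 starts, 26.0% lay under a replicated 6 h region and 3.91% under a 0 h peak. The share was lower for internal than for other starts at each time point. The lists of the 2 time points differ in length, so the shares were not compared between them.

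The letters of the RUNX core were found in a lower share of the windows under these regions than at internal starts with no peak, with intervals that overlapped except for TGTGGT over all windows. The 292 windows lay under 275 regions, 16 of which held the summit for more than 1 window, and windows that share a region were counted separately, so their intervals are too narrow. TGNGGT, searched on both strands over 300 bases, was found in 42.5% of the 292 windows (95% CI 36.7 to 48.4), in 45.9% of all promoter windows and in 48.2% of the 3606 windows at internal starts with no peak. Windows inside genes under regions with a 0 h peak gave 56.3% (95% CI 44.7 to 67.3, 80 windows). TGTGGT, which is a subset of it, was found in 12.3% (95% CI 8.79 to 16.7), in 16.7% of all promoters and in 19.2% (18 to 20.6) at internal starts with no peak. In the 80 windows under regions with a 0 h peak TGTGGT was in 8.75% (3.59 to 17.2). The order against that class was thus opposite for the looser and the stricter letters, with intervals that overlapped for both. The windows under regions were rich in GC, with a median of 65.0% against 49.3% at internal starts with no peak. Between 59.6 and 70.1% GC, which held 146 of the 292 windows and 320 of those with no peak, TGNGGT was in 41.8% (95% CI 33.7 to 50.2) against 50.9% (45.3 to 56.5). There TGTGGT was in 13.0% (8.02 to 19.6) against 14.4% (10.7 to 18.7). Where a window held TGNGGT, its distance to the summit was a median of 52.5 bp. These shares concern only the windows at starts and not the regions away from them.

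Letters of other factors were compared in the same way, over all windows under regions against all internal starts with no peak, and then over the windows of both kinds within that GC range. GGGCGG, the GC box bound by SP and KLF factors, was in 72.9% against 17.9%, and in 78.1% against 65.3% within the range. CCGGAA, bound by ETS factors, was in 24.3% against 6.35%, and within the range in 25.3% against 12.2%. The E-box CACGTG was in 13.4% against 4.44%, and in 13.7% against 6.25%. TGACGTCA, the cAMP response element bound by CREB, was in 4.11% against 0.860%, and in 4.79% against 1.88%. The shares of these 4 were higher under the regions in both comparisons, and within the range the 95% intervals were apart for CCGGAA alone among all letters searched. All 4 contain a CG, and the windows still differed in CG content within the range. The median number of CG pairs per window there was 25 under the regions and 14 with no peak, at a median GC of 65.0% and 62.7%. The part of CG content in these shares was not tested.

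The AP-1 letters TGANTCA, in 4.11% against 8.90% and within the GC range in 3.42% against 6.25%, had a lower share in both. So had the GATA letters AGATAA, in 3.42% against 14.4% and 2.74% against 4.06%, and the TEAD letters GGAATG, in 9.25% against 17.2% and 7.53% against 14.4%. These 3 contain no CG. The order turned within the GC range for 3 others. The NR5A letters AAGGTCA were in 2.74% against 5.80%, but within the range in 2.74% against 1.56%. Extended to CAAGGTCA they were in 1.37% against 1.69%, and then in 0.685% against 0.625%. The C/EBP letters TTGCNNAA were in 8.56% against 12.7%, and then in 6.85% against 4.06%. Counts within the range were small, at most 13 windows for each of these 3. The CTCF core motif was in 0.342% of all windows under regions against 0.527%. The progesterone receptor element was in 0 of 292 windows, which allows a share of up to 1.26%, against 0.555%.

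Windows of 6 h-only regions near gene ends gave values close to the internal ones for most letters, with 75.6% for GGGCGG and 44.4% for TGNGGT, but 35.5% for CCGGAA. All promoters gave 35.9% for GGGCGG, 15% for CCGGAA, 7.17% for CACGTG, 1.80% for TGACGTCA, 11.2% for AGATAA, 7.79% for TGANTCA, 4.71% for AAGGTCA, 1.53% for CAAGGTCA, 10.8% for TTGCNNAA and 14.6% for GGAATG.

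**Figure D3:**
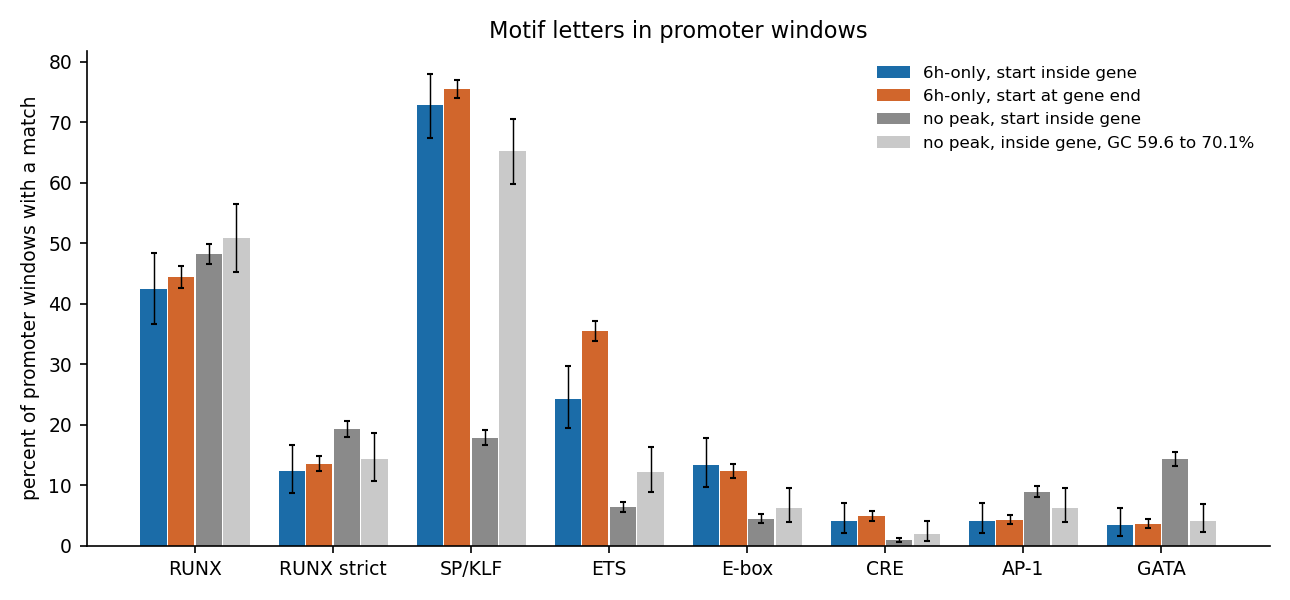
Share of promoter windows of 300 bases that hold the letters of each motif on either strand (y axis, percent) for 8 motifs (x axis), in 292 windows under the regions, windows under 6 h-only regions at gene ends, and windows at internal starts with no peak, over all and within 59.6 to 70.1% GC. The other classes are not limited by GC. Bars carry 95% Clopper-Pearson intervals, and the TGNGGT bars lie between 42.5% and 50.9% in the 4 classes shown while the SP/KLF bars range from 17.9% to 75.6%.

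The 4927 regions lay in 3204 genes, of which 2781 were protein-coding and 400 long non-coding RNA genes. Without 6 h replicate 1 there were 5321 host genes. A single region was found in 2245 genes and 2 or more in 959 (29.9%), and 88 genes held at least 5. Protein-coding genes that hosted a region were 12.7% of all, 14.4% of those over 2000 bp and 18.3% of those over 10000 bp. Hosting rose with gene length, from 4.31% of genes of 2000 to 10000 bp to 38.8% of those over 300000 bp, while the density fell from 8.66 to 1.68 regions per Mb. Coding hosts had a median length of 58682 bp against 17149 bp for all coding genes. Where genes held several, neighbouring regions lay a median of 13339 bp apart and 31.4% within 5000 bp of each other. Of the coding hosts with a known start, 53.8% also had a replicated 6 h region over their outermost start, against 35.2% of other coding genes over 2000 bp.

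Pakap, which encodes anchoring proteins of protein kinase A, held the most regions, 16 over 462510 bp, and had no 0 h peak. Its highest by mean fold percentile, at chr4:57601326-57602425, had folds of 21.6 and 37.5. Auts2, a gene of neural development, held 12 over 1105888 bp. The transcriptional corepressor gene Bcor, Fndc3b, the forkhead factor gene Foxp1, Runx2 and the Rac activator gene Tiam1 held 9 each. Per length, Bcor on the X chromosome had 7.27 regions per 100 kb, Pakap 3.46, Fndc3b 3.05, Foxp1 1.51 and Auts2 1.09. The best region of Bcor reached folds of 10.4 and 12.1 and that of Foxp1 26.7 and 46.9, so a gene with many regions did not always hold a strong one.

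Distances to 0 h peaks were taken between summits, from regions that by definition overlapped none and from the short 0 h lists. On this measure 66 (1.34%) had one within 1000 bp, 571 (11.6%) within 10000 bp and 1494 (30.3%) within 50000 bp. A 0 h peak anywhere inside the host was found in 552 of the 3204 hosts (17.2%), and a replicated one in 5.96%. Without 0 h replicate 2, which has the longer 0 h list, the first share was 6.68%.

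Genes of the ovary were then followed by list (229 genes in 11 lists, some in more than 1). The highest region of a gene is the one with the highest mean fold percentile, which is not always the one with most reads. Of these genes, 103 hosted a region (45.0%), against 22.6% reckoned from coding genes of the same lengths. The lists were assembled with earlier results of these data known, so the shares are a description. Median fold percentiles of the regions in the lists ranged from 40 (growing follicle) to 74.2 (matrix and follicle rupture), around the 57.2 of all 4927 regions.

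**Figure D4:**
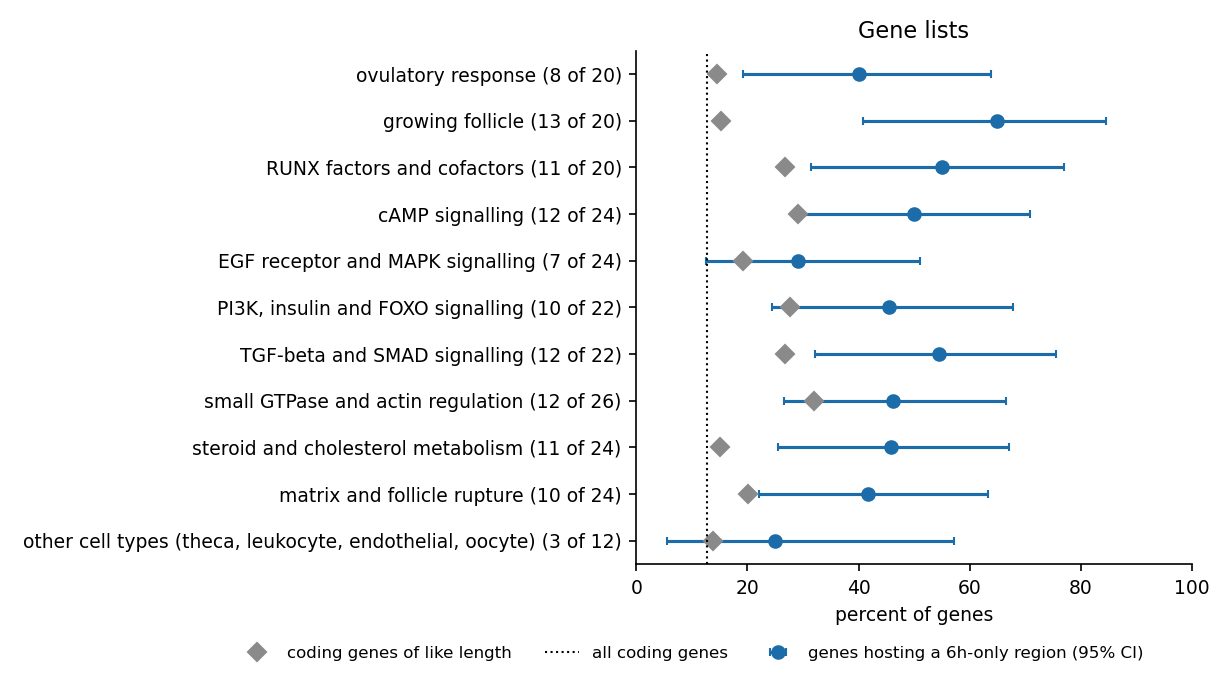
Share of the genes of each list that host at least 1 of the regions (x axis, percent, blue, with 95% Clopper-Pearson intervals) for the 11 lists (y axis). Grey diamonds give the share reckoned from coding genes of the same lengths and the dotted line the 12.7% of all coding genes, and the widest gap between a blue point and its diamond is in the growing follicle list, 65.0% against 15.3%.

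Genes of the growing follicle hosted regions most often, 13 of 20 (65.0%, reckoned 15.3%). They were the receptor genes Amhr2, Lhcgr and Esr2, the transcription factor genes Foxl2, Gata4, Nr5a1 and Nr5a2, the steroid enzyme genes Cyp11a1, Cyp19a1, Hsd3b1 and Hsd17b1, the inhibin and activin subunit gene Inhba and the cyclin gene Ccnd2. Cyp11a1 held 4 regions in 29008 bp. The highest, at chr9:58011976-58013399, had 84 and 138 reads at folds of 16.9 and 33.9, and the second, at chr9:58008710-58009607, 111 and 118 reads. The weakest, with its summit on the printed Cyp11a1 start, had 41 and 36 reads at folds of 5.10 and 6.20. The Cyp11a1 regions thus ran from percentiles of 7.63 and 8.77 to 88.6 and 95.8, and the summit of a 0 h peak lay 906 bp from the highest. Cyp19a1, the aromatase that makes oestradiol, held 1 region of 65 and 87 reads at folds of 8.02 and 13.4. Hsd3b1 had 46 and 74 reads (folds 11.0 and 21.2) and Inhba 53 and 74 (10.8 and 18.3). Fshr, the receptor of follicle-stimulating hormone, held none over 215724 bp, and Star, Igf1, Amh, Inha, Fst and Wt1 held none either. Inha, Fst and Wt1 held 0 h peaks and also 2 replicated 6 h regions each that the definition left out. Amh, a gene of only 2440 bp, held 1 such 6 h region. Fshr, Star and Igf1 held no replicated 6 h region of any kind.

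Among 20 genes of the ovulatory response 8 hosted a region (40%, reckoned 14.5%). Zbtb16, a zinc finger repressor gene, held 6, and also held 6 peaks at 0 h. Its highest by fold percentile had 76 and 148 reads at folds of 20.5 and 47.6. Another Zbtb16 region had more reads, 153 and 255, at folds of 20.7 and 42.9. Runx2 held 9, the highest with 54 and 73 reads (14.6 and 23.6), and Runx1 held 3 with 67 and 53 reads in the highest (16.8 and 15.5). Pgr, the progesterone receptor, held 1 weak region of 34 and 22 reads, 2777 bp from its start. Pparg, Fosl2, Sult1e1 and Vegfa were the other hosts. Ptgs2, Areg, Ereg, Btc, Has2, Il6, Ptx3, Tnfaip6, Edn2, Adamts1, Cebpb and Cited4 hosted none. Cebpb (1518 bp) and Cited4 (1258 bp) are too short to hold a summit over 1 kb from both gene ends. Adamts1, Tnfaip6, Cebpb and Cited4 each held 1 replicated 6 h region that the definition left out. Of the 20 genes, 12 are over 10000 bp, and all 8 hosts are among them.

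Of 20 genes of RUNX factors and cofactors 11 hosted a region (55.0%, reckoned 26.8%). All 3 RUNX genes were hosts, with Runx3 holding 2, while Cbfb, the gene of the partner subunit, held none. Runx1 carried 10 peaks of the 0 h lists inside the gene and Runx2 carried 1. The Groucho corepressor genes Tle1 (52 and 89 reads), Tle3 (53 and 72) and Tle4 were hosts, as were Cbfa2t3, Sin3a and the coactivator genes Yap1 and Wwtr1. Runx1 and Runx2 count in this list and among the ovulatory genes. The acetyltransferase genes Ep300 and Crebbp and the deacetylase genes Hdac1 and Hdac3 were not hosts. Cbfb and Crebbp each held 1 replicated 6 h region that the definition left out, and Ep300, Hdac1 and Hdac3 held no replicated 6 h region.

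Steroid and cholesterol genes hosted regions in 11 of 24 cases (45.8%, reckoned 15%), of which Cyp11a1, Cyp19a1, Hsd3b1 and Hsd17b1 also stand among the growing follicle genes. Abca1, which exports cholesterol, held 4 regions and no 0 h peak, the highest with 77 and 129 reads at folds of 17.8 and 37.3. Osbpl3, an oxysterol-binding protein gene, had 47 and 71 reads (12.3 and 22.3). The lipoprotein receptor gene Scarb1, and Por, Fdx1 and Srebf1, were also hosts. Star, the mitochondrial cholesterol carrier, and Cyp17a1 were not.

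**Figure D5:**
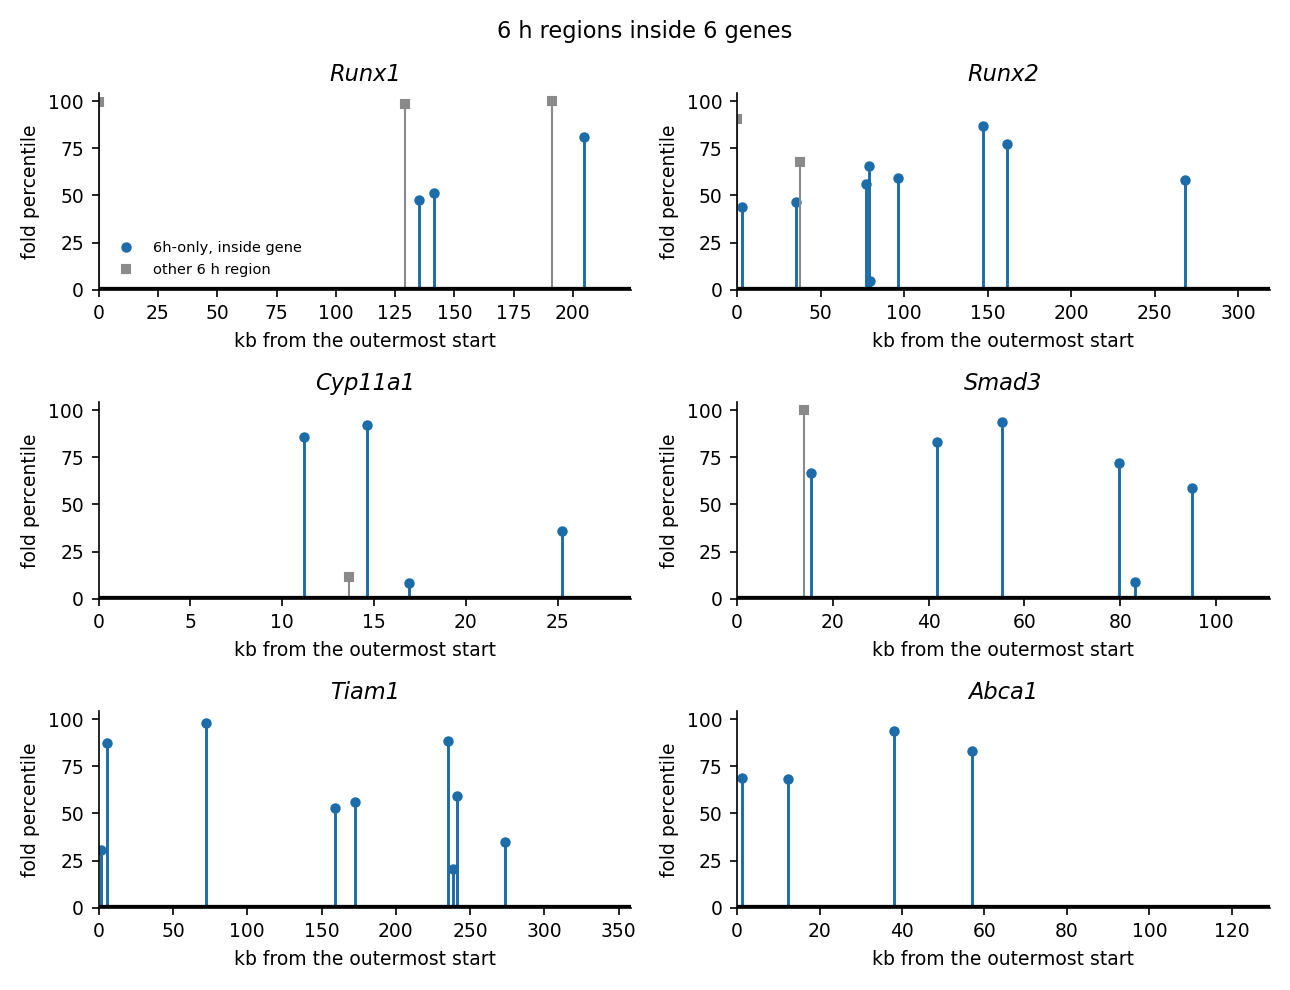
Fold percentile (y axis, mean of the 2 6 h libraries) of 6 h regions along 6 genes (x axis, kb from the outermost start). Blue points are 6 h-only regions inside the gene and grey squares other replicated 6 h regions, such as those with a 0 h peak. Cyp11a1 has 4 blue points, Runx1 3, Runx2 and Tiam1 9 each, Smad3 6 and Abca1 4.

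Signalling downstream of the luteinising hormone receptor runs through cAMP, and 12 of 24 genes of that pathway hosted a region (50%, reckoned 29.1%). The phosphodiesterase gene Pde8a had 161 and 215 reads at folds of 24.5 and 40.4. Prkacb, a catalytic subunit of protein kinase A, had 75 and 133 reads (20.2 and 42.8), and the adenylyl cyclase gene Adcy9 97 and 151 (17.3 and 31.3). Prkar1a, Prkar2b, Pde4a, Pde4d, Pde7b, Rapgef3, Rapgef4, Akap13 and Gnas, which encodes the stimulatory G protein, completed the hosts. Of the EGF receptor and MAPK genes 7 of 24 were hosts (29.2%, reckoned 19.1%), the nearest of the signalling lists to its length-based share. The adaptor gene Grb2, with 2 regions, had 64 and 94 reads in the highest (11.2 and 17.8), and Egfr, with 3 regions, 49 and 90 (9.96 and 22.2).

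PI3K, insulin and FOXO genes were hosts in 10 of 22 cases (45.5%, reckoned 27.7%). The single region of Insr, the insulin receptor, at chr8:3220978-3221734, ranked 13 of the 4927, with 133 and 165 reads at folds of 35.6 and 53.0. The nearest 0 h summit was 1018000 bp from its own. Igf1r held 6 regions, the highest by fold percentile with 74 and 110 reads (14.9 and 26.2). Another Igf1r region had more reads, 80 and 114, at lower folds (10.9 and 19.3). Foxo1, a transcription factor gene restrained by insulin signalling, held 3, the highest with 64 and 98 (13.0 and 24.1). Of the TGF-beta and SMAD genes 12 of 22 were hosts (54.5%, reckoned 26.7%). The receptor gene Bmpr1b had 89 and 83 reads (23.9 and 26.8), and the coreceptor gene Tgfbr3 68 and 114 (16.4 and 28.0). Smad3, which carries the signal of activin and TGF-beta to the nucleus, held 6 regions, the highest with 154 and 207 reads (18.8 and 34.9).

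Small GTPase and actin genes were hosts in 12 of 26 cases (46.2%, reckoned 31.9%). Tiam1 held 9 regions, of which the highest had 139 and 198 reads (27.9 and 48.5), and no 0 h peak lay inside it. Arhgef3, an exchange factor of small GTPases, had 79 and 158 reads (18.3 and 45.6) and Arhgap26, a GTPase-activating protein, 95 and 141 (22.8 and 39.4). Of the genes of matrix and follicle rupture 10 of 24 were hosts (41.7%, reckoned 20.1%). The protease inhibitor gene Timp1 had 99 and 142 reads (26.6 and 45.6) in a gene of 4572 bp. Col4a1, a basement membrane collagen gene, held 5 regions, the highest by fold percentile with 78 and 106 reads (20.2 and 32.8). Another Col4a1 region had more reads, 85 and 133, at lower folds (14.8 and 25.1). The membrane protease gene Mmp14 held 1 of 62 and 105 reads (14.6 and 29.8).

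Defining genes of other cells in the ovary hosted regions in 3 of 12 cases (25%, 95% CI 5.49 to 57.2, reckoned 13.9%). Of the 12 genes, 6 are over 10000 bp and 3 of these were hosts (50%), against 98 of 199 such genes (49.2%) over all lists. The 3 hosts were the leukocyte factor gene Spi1 with 75 and 99 reads and the endothelial genes Cdh5 with 52 and 56 and Pecam1 with 51 and 58. The theca genes Cyp17a1 and Insl3, the oocyte genes Zp3, Gdf9 and Bmp15, and Cd68, Adgre1, Kdr and Ptprc held none. Insl3 (1326 bp) and Cd68 (1958 bp) are too short to hold one under the definition. The leukocyte gene Ptprc held 1 replicated 6 h region that the definition left out, and also a 0 h peak. A peak inside a gene is not a measure of its expression, and the part other cells had in these regions was not tested.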

How the data were processed

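The data are 4 lists of RUNX1 ChIP-seq peaks in the narrowPeak format, 1 per library. Reads of 75 nt were aligned with Bowtie2 (2.2.5) to mm10, the equivalent of GRCm38, and peaks were called with MACS2, per the submitters' processing notes. Each library was called on its own against the pooled input of its time point, per the series design and the deposited peak names. The version and settings of MACS2 are not given in the sources used here. The deposited lists give fold enrichment over local background (a ratio) and, on the −log10 scale, the q-value and p-value of each peak. A further deposited column, the score, equals the −log10 p times a constant, rounded down, and was not used.

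Regions, summits, percentiles, gene places and list counts were computed with Python 3.11.15, pandas 2.3.3, numpy 2.4.6 and scipy 1.17.1. Fold and −log10 p were solved for the whole-number pileup and the background (misfit in −log10 p at most 0.005), which succeeded for 100% of peaks. The procedures were tested on simulated data. Depth beyond the recovered backgrounds is unknown. Genes came from RefSeq on GRCm38.p6, which gives whole genes, so exon and intron were not separated. A summit in several genes was given to the shortest protein-coding one, or to the shortest of all where none was protein-coding. Strand came from a table of starts of 27025 genes, without chromosome 18. The allowed positions of a host were taken every 200 bp over 1 kb from gene ends. Length-based shares used 20 bins of coding gene length.

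The members and gene lists were chosen with earlier results of these data known. Genes are named as the 10 highest regions, the 5 genes with most regions (Runx2 and Tiam1 tie with the last of them), list genes with values for up to 3 each, and regions at the limits. Some list genes count in the shares but are not reported here by name. The genes whose starts are printed, and further regions of Cyp11a1 and those of Cyp19a1 and Pgr, were chosen after their values were seen. No test was run on values the definition used. Intervals cover counting error only, and 2 libraries per time point give no more than their 2 values. The planned motif windows of the genome around summits were not analysed here.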

Additional observations from a re-analysis of the deposited data

How the results depend on the processing

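Of the settings tried, 152 values of the main results stayed close to the reported ones, 38 moved and 1 reversed. No paired analysis was possible because the regions come from no test between the time points. With recovered pileup in place of fold, the members' median percentile minus that of regions near gene ends reversed from 7.57 to -1.72. With −log10 q of at least 20 in all lists the share inside genes was 32.3%, the width 593 bp, the summit gap 25 bp and the share of list genes 36.2%. With that limit at 6 h only, the number of regions was 3116, the width 574 bp, the gap 25 bp, the difference from regions with a 0 h peak -15.7 and the list share 34.9%. When only replicated 0 h regions excluded, the share was 33.3% and the width 527 bp. Under 1000 bp of width they were 35.8% and 482 bp. Over 2 kb from gene ends the share was 28.1%, 22.3% lay in the fifth nearest the start (16.8% of allowed positions), and 36.7% of list genes were hosts. Over 5 kb there were 2948 regions (20.6%) in 1853 genes, with a width of 493.5 bp, a gap of 28 bp, 16.9% in the fifth nearest the start, a difference from regions between genes of -1.97 and 32.8% of list genes. With protein-coding genes only, the share was 33.0% and the fifth nearest the start 31.1%. Leaving out regions within 1 kb of annotated starts, chosen after seeing the data, gave 29.2%, and TGTGGT in place of TGNGGT, also chosen afterwards, 12.3%. Keeping 1 window per region, again chosen afterwards, gave 44%.

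Leaving out 1 library at a time gave 4959 to 10425 regions, the highest without 6 h replicate 1, when the longer list stood alone. Ranges were 33.2 to 40.6% for the share inside genes, 45.3 to 58.8 for the median percentile, and 1.23 to 7.64, -5.82 to -4.31 and -41.5 to -27.0 for the differences from regions at gene ends, between genes and with a 0 h peak. Widths were 334 to 527 bp, summit gaps 30 bp, the fifth nearest the start 26.8 to 30.3%, hosts 3223 to 5321 and list genes 45.4 to 62.4%. The cause was not tested. A pileup limit of about 20 reads bounds what the 0 h lists could show.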

Other observations

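The X chromosome held few of these regions. It had 68, or 1.37 per Mb of allowed gene positions, against 4.44 per Mb over the autosomes, where values ran from 3.16 on chromosome 1 to 6.26 on chromosomes 11 and 17. The 6 h-only regions near gene ends showed the same order, with 13.9 per 100 coding genes on X and 33.4 over the autosomes. Within X, Bcor alone held 9 of the 68.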
